A study of Rattus norvegicus with 24 samples.

Results

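The genes of pyruvate dehydrogenase, the citric acid cycle and anaplerosis were examined in rat myocardium after surgically made mitral regurgitation (MR). They were chosen by symbol as 38 named genes: the mitochondrial pyruvate carrier, the pyruvate dehydrogenase complex and its phosphatases, the enzymes of the cycle, their cytosolic or NADP-linked partners, the carboxylases that refill the cycle and the enzymes that exchange its acids with amino acids. Of these, 36 were listed in every deposited table, among 10129 genes listed in all of them, and the other 2, Idh3b and Mut, were listed in none. RNA was sequenced from the myocardium of Sprague-Dawley rats in 24 libraries. In MR rats a mitral leaflet was perforated through a left thoracotomy, and in Sham rats the leaflet was left intact. There were 5 Sham libraries, from 2 weeks after surgery. MR gave 4 libraries at 2 weeks and 5 each at 10, 20 and 40 weeks. Every Sham library is from 2 weeks, so at 10, 20 and 40 weeks the duration of MR, ageing and handling cannot be told apart, and all 4 comparisons with Sham share the same Sham libraries. The labels state no chamber of the heart, sex or age, nor whether every library stands for a separate animal, so p-values measure the spread between these libraries.

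Pyruvate made by glycolysis enters mitochondria through a carrier and is turned into acetyl-CoA by the pyruvate dehydrogenase complex, which kinases switch off and phosphatases switch on. Citrate synthase joins acetyl-CoA to oxaloacetate, and the cycle then releases carbon dioxide and passes electrons to the respiratory chain. Anaplerosis is the refilling of the cycle with acids other than acetyl-CoA, by pyruvate carboxylase, by propionyl-CoA carboxylase or by amino acids. The heart draws most of its acetyl-CoA from fatty acids and a smaller share from pyruvate. RNA levels were measured here, not enzyme activity or flux.

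Levels are normalised read counts, that is, gene counts divided by a factor for each library. A log2 difference compares the means of log2(value + 1) of MR and Sham and is printed with its standard error (SE), and a gene passed when its Benjamini-Hochberg adjusted p over all genes tested, from limma, was under 0.05. Libraries held 7.69 to 12.1 M reads on listed genes, and no listed gene was without reads in any library. The tissue check used the summed level of 11 listed cardiomyocyte markers, which ran from 48393 in replicate 1 of MR at 2 weeks to 79000 in replicate 3 of MR at 20 weeks. Listed markers of fibroblasts summed to between 687 and 2850 and those of macrophages to between 41.2 and 182. In bulk tissue, fewer cells of a type and less RNA per cell cannot be told apart.

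Most members were high or low in the same libraries. Replicate 3 of Sham was the lowest Sham library in 28 of 36 members and replicate 2 in another 7, while replicates 1 and 5 were the highest in 19 and 15. Replicate 1 of MR at 2 weeks was lowest in 33 of 36, replicate 4 of MR at 10 weeks in 33, and replicate 1 of MR at 20 weeks in 29, whereas replicate 4 of MR at 40 weeks was highest in 32. The median SD of a member's log2 level among Sham libraries was 0.436, against 0.255 for all genes, and among MR libraries at 2 weeks 0.516 against 0.283. Sham replicate 3 also held the highest fibroblast marker sum of its group (2850, group median 1023) and the lowest cardiomyocyte marker sum (60590, group median 66868). Replicate 4 of MR at 10 weeks held the highest atrial marker sum of its group (3977, group median 399.9). It also held the highest fibroblast, macrophage, smooth muscle, adipocyte and skeletal muscle sums. The lowest cardiomyocyte sum at 10 weeks was in replicate 5 (51452), where the members' median log2 difference from the Sham mean was -0.09. Replicate 1 of MR at 2 weeks held the lowest cardiomyocyte sum (48393) and lowest fibroblast sum of its group (827, median 1767). Its macrophage, lymphocyte and skeletal muscle sums were the lowest of that group as well. Its smooth muscle (344, median 257), adipocyte (718, median 482) and endothelial (942, median 885) sums were the highest. The part of these marker levels in the results was not tested.

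**Figure D1:**
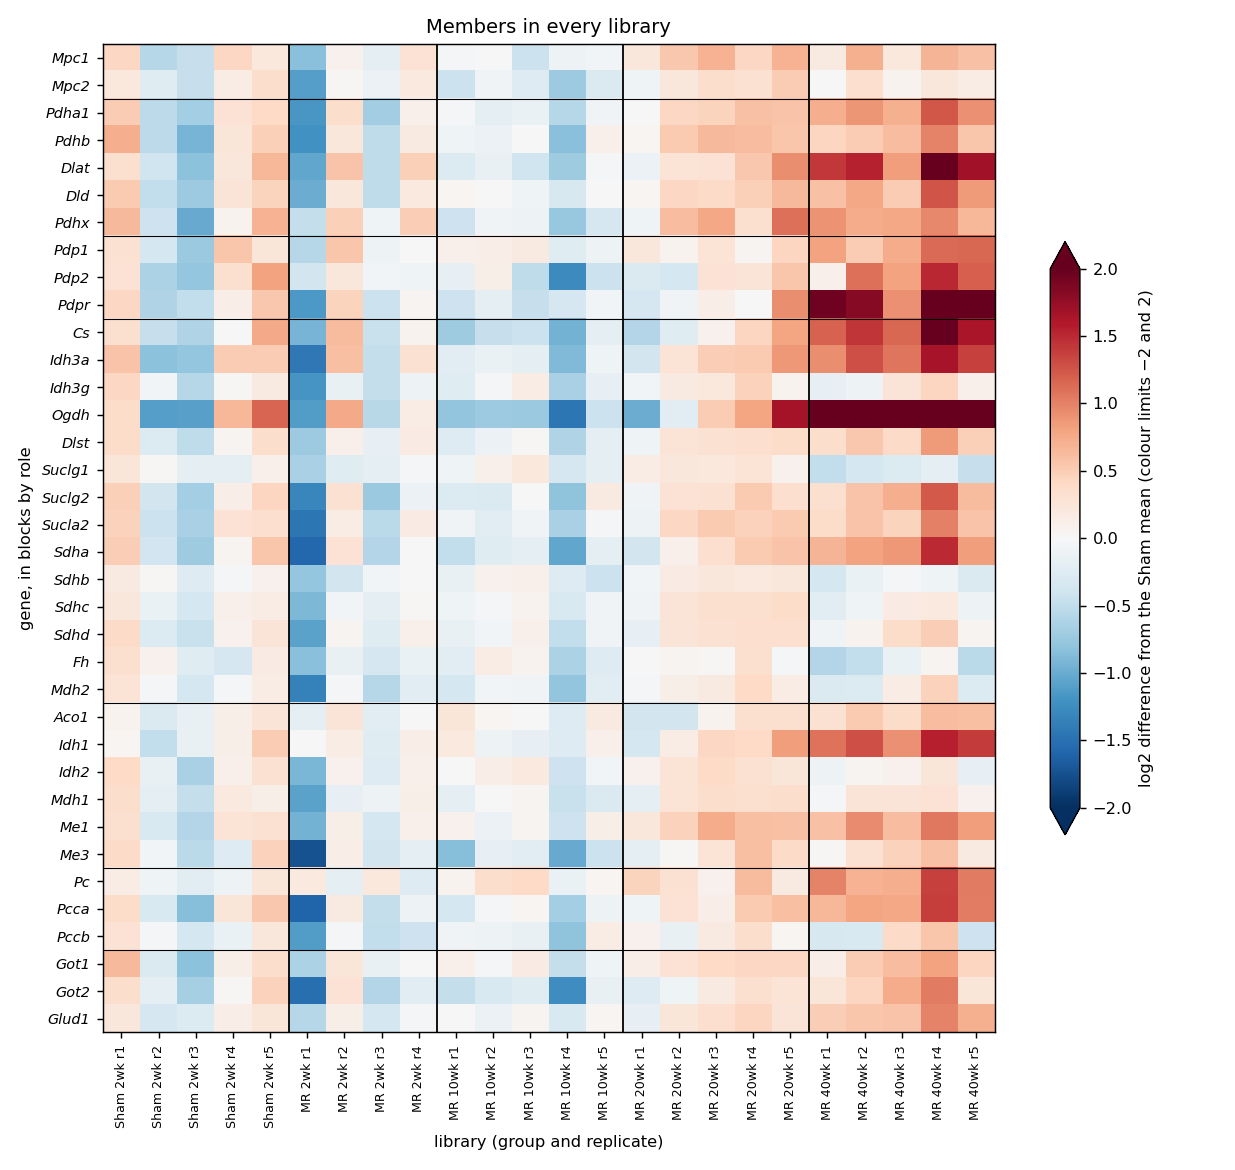
Log2 difference of each listed member from its Sham mean, in every library, on the scale that joins the tables. Rows are genes in blocks by role, columns are libraries in blocks by group, red is higher and blue is lower than the Sham mean. By the median over the members, the bluest columns are MR 2 weeks replicate 1 (-1.01), MR 10 weeks replicate 4 (-0.62), Sham replicate 3 (-0.57), MR 2 weeks replicate 3 (-0.36) and Sham replicate 2 (-0.31). The darkest red cells are those of Ogdh, Pdpr, Cs and Dlat at 40 weeks.

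At 40 weeks of MR, 13 members rose and 2 fell against Sham, and the genes that rose were spread over every role but the pyruvate carrier. Among all 10094 genes tested, 16.3% passed as higher and 30.9% as lower. The median log2 difference over the 36 members was 0.43 (range -0.54 to 2.39), beside -0.15 over all genes, and it was 0.23 without Sham replicate 3. MR and Sham libraries did not overlap, with MR higher, in 10 members, against 9.06% of all genes, and with MR lower in 1 member, against 20.2%. The count rested partly on single libraries: it was 8 without Sham replicate 2 and 9 without MR replicate 4. Ogdh, Pdpr, Cs, Dlat, Idh3a, Idh1, Pc and Suclg1 passed in all 10 fits that left out 1 library, while Sdha, Pdha1, Pdp1, Pcca, Me1 and Glud1 did not pass without MR replicate 4 or without Sham replicate 2. Fh passed in 4 of the 10. The scaling mattered as well, since the deposited values put the median of all genes at -0.15. With each library rescaled by its median ratio to the other libraries, that median was -0.01 and 20 members rose and 1 fell (23.7% and 21.8% of all genes), the 7 additional ones being Aco1, Dlst, Dld, Suclg2, Sucla2, Pdhx and Pdp2, and Fh no longer passed. Among all genes called, 34.5% were higher as deposited and 52.1% after that rescaling.

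**Figure D2:**
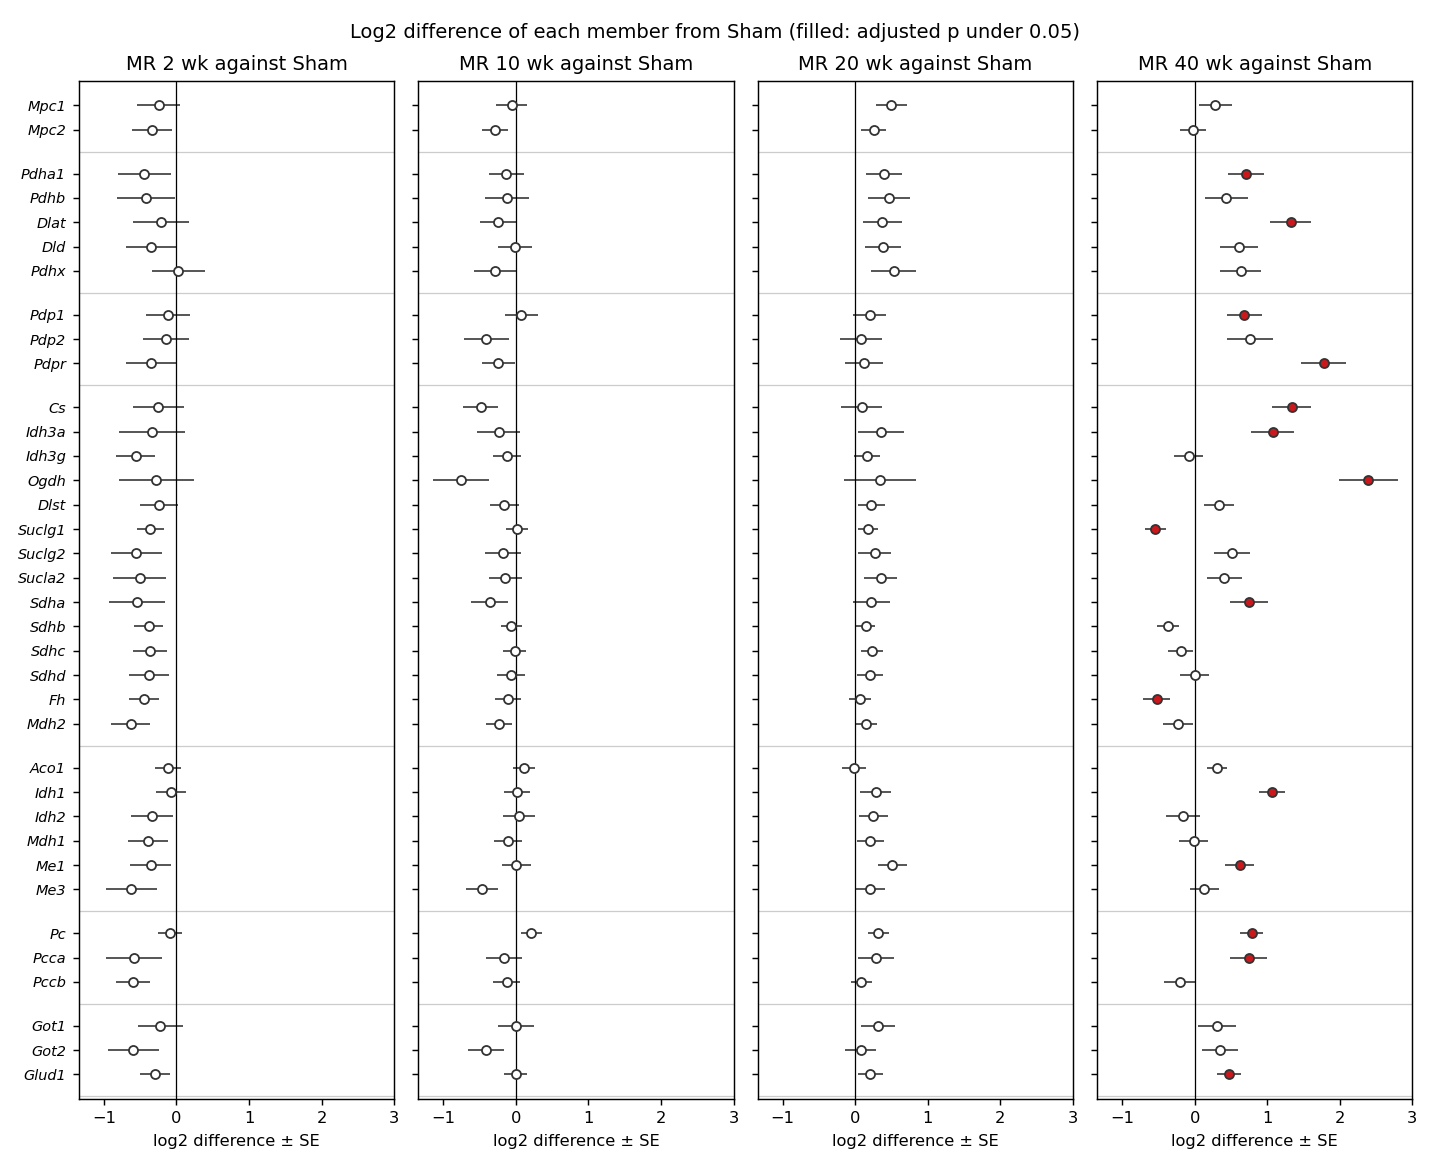
Log2 difference from Sham with its SE (x axis) for each listed member (y axis, blocks by role) at 2, 10, 20 and 40 weeks of MR. Filled points passed at an adjusted p under 0.05. No point is filled at 2, 10 or 20 weeks, and at 40 weeks 13 filled points lie right of 0 and 2 left of it.

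Of the pyruvate carrier's subunits, neither passed at 40 weeks. Mpc1, a subunit of the dimer that brings pyruvate into the matrix, stood at 180.04, 249, 187, 249 and 213 in MR replicates 1 to 5 and at 245, 114, 117, 249.98 and 201 in Sham replicates 1 to 5, with a log2 difference of 0.29 ± 0.23 (SE; adjusted p = 0.319). All MR values of Mpc1 lay within the range of the Sham values. Its partner Mpc2 gave a log2 difference of -0.02 ± 0.18 (SE; adjusted p = 0.921).

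All 5 genes of the pyruvate dehydrogenase complex had a higher mean in MR at 40 weeks, and 2 of them passed. Pdha1 encodes the catalytic E1 alpha subunit, which the kinases phosphorylate. It stood at 349.5, 375, 350.4, 492 and 357 in MR and at 349, 157, 134, 305 and 306 in Sham, with a log2 difference of 0.71 ± 0.25 (SE; adjusted p = 0.0311). The lowest MR library was just above the highest Sham library, and Sham replicates 2 and 3 were far below the other Sham libraries. Dlat, the E2 acetyltransferase that forms the core, stood at 122, 127, 82.4, 188 and 131 in MR and at 65.6, 36.5, 25.6, 62.3 and 78.8 in Sham, with a log2 difference of 1.32 ± 0.28 (SE; adjusted p = 0.00196), and its groups did not overlap. Pdhb, the E1 beta partner of Pdha1, gave a log2 difference of 0.44 ± 0.29 (SE; adjusted p = 0.229), Pdhx, which tethers the E3 subunit to the core, a log2 difference of 0.64 ± 0.28 (SE; adjusted p = 0.0757), and Dld, the E3 dehydrogenase also used by other complexes, a log2 difference of 0.61 ± 0.26 (SE; adjusted p = 0.0652).

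Of the 3 phosphatase genes, 2 rose, a catalytic subunit and the regulatory one. Pdp1, the phosphatase of the complex that is most used in muscle, stood at 40.8, 31.5, 39.5, 49.9 and 46.2 in MR and at 32.8, 18.99, 13.6, 39.7 and 29.6 in Sham, with a log2 difference of 0.69 ± 0.24 (SE; adjusted p = 0.0293). MR replicates 2 and 3 lay below the highest Sham library, replicate 4, and the other MR libraries above it. Pdp2, the second phosphatase, was at 5.55, 11.5, 9.72, 15.8 and 11.5 in MR and at 7.45, 3.19, 2.65, 7.77 and 10.6 in Sham, with a log2 difference of 0.76 ± 0.31 (SE; adjusted p = 0.0566). Pdpr, the regulatory subunit that lowers the phosphatase's activity, was at 23.7, 20.7, 11.2, 41.99 and 28.00 in MR and at 8.83, 3.54, 3.67, 7.13 and 9.14 in Sham, with a log2 difference of 1.78 ± 0.31 (SE; adjusted p = 0.000593), and every MR library was above every Sham library. Among the 4 kinases that act against these phosphatases, which are not members, Pdk4 was at a mean of 50.4 ± 22.8 in MR and 19.6 ± 11.01 in Sham (SD, n = 5 each; log2 difference 1.42 ± 0.35 SE, adjusted p = 0.00504). Pdk1 was at 124 ± 20.3 against 61.5 ± 25.5 (SD; log2 difference 1.10 ± 0.26 SE, adjusted p = 0.00393). The other 2 kinases did not pass. On the deposited scale the rises thus took in 1 of the 2 phosphatases, the subunit that restrains the phosphatase and 2 of the 4 kinases. This split depended on the scaling. After each library was rescaled by its median ratio, all 3 phosphatase genes and 3 of the 4 kinases rose.

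In the cycle itself, 4 of 14 listed genes rose (Cs, Idh3a, Ogdh and Sdha) and 2 fell (Suclg1 and Fh). Cs, citrate synthase, which starts the cycle, stood at 134, 153, 134, 268 and 164 in MR and at 85.02, 45.2, 39.1, 67.9 and 109 in Sham. MR was higher in every library, by 2.53-fold on the means of the log2 values, with a log2 difference of 1.34 ± 0.27 (SE; adjusted p = 0.00134).

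The largest difference among the members was that of Ogdh, the thiamine-dependent E1 subunit of the 2-oxoglutarate dehydrogenase complex, on rn6 at chromosome 14, 86414976 to 86480157. It stood at 427, 579.8, 366, 801 and 539 in MR replicates 1 to 5 and at 134, 44.1, 42.6, 166 and 219.9 in Sham replicates 1 to 5. The means were 543 ± 168 and 121 ± 77.6 (SD, n = 5 each). The means of the log2 values were 5.26-fold apart, with a log2 difference of 2.39 ± 0.41 (SE; adjusted p = 0.000560). The lowest MR library was well above the highest Sham library, although Sham itself spread widely, with replicates 2 and 3 far below replicate 5. Dlst, the E2 succinyltransferase of the same complex, was at 390.4, 423, 404, 538 and 377 in MR and at 455, 269.6, 219, 369.8 and 426 in Sham, with a log2 difference of 0.33 ± 0.20 (SE; adjusted p = 0.190). MR and Sham values of Dlst overlapped. Inside each library, the log2 ratio of Ogdh to Dlst was 0.31 ± 0.30 in MR and -1.75 ± 0.72 in Sham (SD, n = 5 each), a pair chosen after its values were seen and given with no test.

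Isocitrate dehydrogenase 3, the NAD-linked enzyme of the cycle, is built of alpha, beta and gamma subunits, of which the tables list alpha and gamma. Idh3a, the catalytic alpha subunit, stood at 133, 164, 150.3, 215 and 161 in MR and at 121, 41.96, 41.2, 116 and 109 in Sham, with a log2 difference of 1.07 ± 0.30 (SE; adjusted p = 0.00939), and the groups did not overlap. Idh3g, the regulatory gamma subunit, stood at 156, 156, 212, 232 and 167 in MR and at 269, 179.8, 120.4, 209 and 218 in Sham, with a log2 difference of -0.08 ± 0.20 (SE; adjusted p = 0.758). Its MR libraries lay inside the Sham range, and its direction turned with the scaling: the difference was 0.077 after the median-ratio rescaling.

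Succinyl-CoA synthetase pairs a shared alpha subunit, Suclg1, with an ATP-forming beta subunit, Sucla2, or a GTP-forming one, Suclg2. Suclg1 fell: it stood at 235, 249, 279, 283 and 215 in MR and at 456, 361, 295, 342 and 389.98 in Sham, with a log2 difference of -0.54 ± 0.15 (SE; adjusted p = 0.00950), and all MR libraries were below all Sham libraries on the deposited scale. The beta subunits did not fall. Sucla2 was at 171, 189, 183, 259.6 and 175 in MR and at 211, 104, 85.4, 188 and 181 in Sham, with a log2 difference of 0.41 ± 0.24 (SE; adjusted p = 0.164). Suclg2 was at 43.7, 50.1, 59.5, 81.3 and 48.98 in MR and at 56.9, 28.7, 21.9, 45.03 and 51.9 in Sham, with a log2 difference of 0.51 ± 0.24 (SE; adjusted p = 0.0964). In both, MR replicate 4 was the highest library and the groups overlapped.

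Succinate dehydrogenase is complex II of the respiratory chain as well as an enzyme of the cycle. Sdha, its flavin-bearing catalytic subunit, stood at 389.8, 407, 448, 672 and 388 in MR and at 397, 199, 151, 294 and 388 in Sham, with a log2 difference of 0.75 ± 0.26 (SE; adjusted p = 0.0283). MR replicates 1 and 5 were below the highest Sham library, and MR replicate 4 was far above the rest. Sdhb, the iron-sulphur subunit that binds Sdha, stood at 330.4, 369, 416, 388 and 306 in MR and at 551, 454, 359, 487 and 485 in Sham, with a log2 difference of -0.36 ± 0.15 (SE; adjusted p = 0.0665). Here the MR mean was the lower one and the groups overlapped. The membrane anchors gave a log2 difference of -0.19 ± 0.17 (SE; adjusted p = 0.369) for Sdhc and a log2 difference of 0.00 ± 0.20 (SE; adjusted p = 0.999) for Sdhd.

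Fh, fumarase, which hydrates fumarate to malate, was the other member that fell. It stood at 128, 131, 178, 196 and 118 in MR and at 280.00, 218, 166, 179 and 235 in Sham, with a log2 difference of -0.52 ± 0.18 (SE; adjusted p = 0.0297). MR replicates 3 and 4 were inside the Sham range, and Fh did not pass under 5 of the 8 alternative settings. Mdh2, the malate dehydrogenase that closes the cycle, stood at 450.1, 438, 619, 745 and 409.7 in MR and at 775, 574, 444, 629.96 and 668 in Sham, with a log2 difference of -0.23 ± 0.20 (SE; adjusted p = 0.367), and its groups overlapped.

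**Figure D3:**
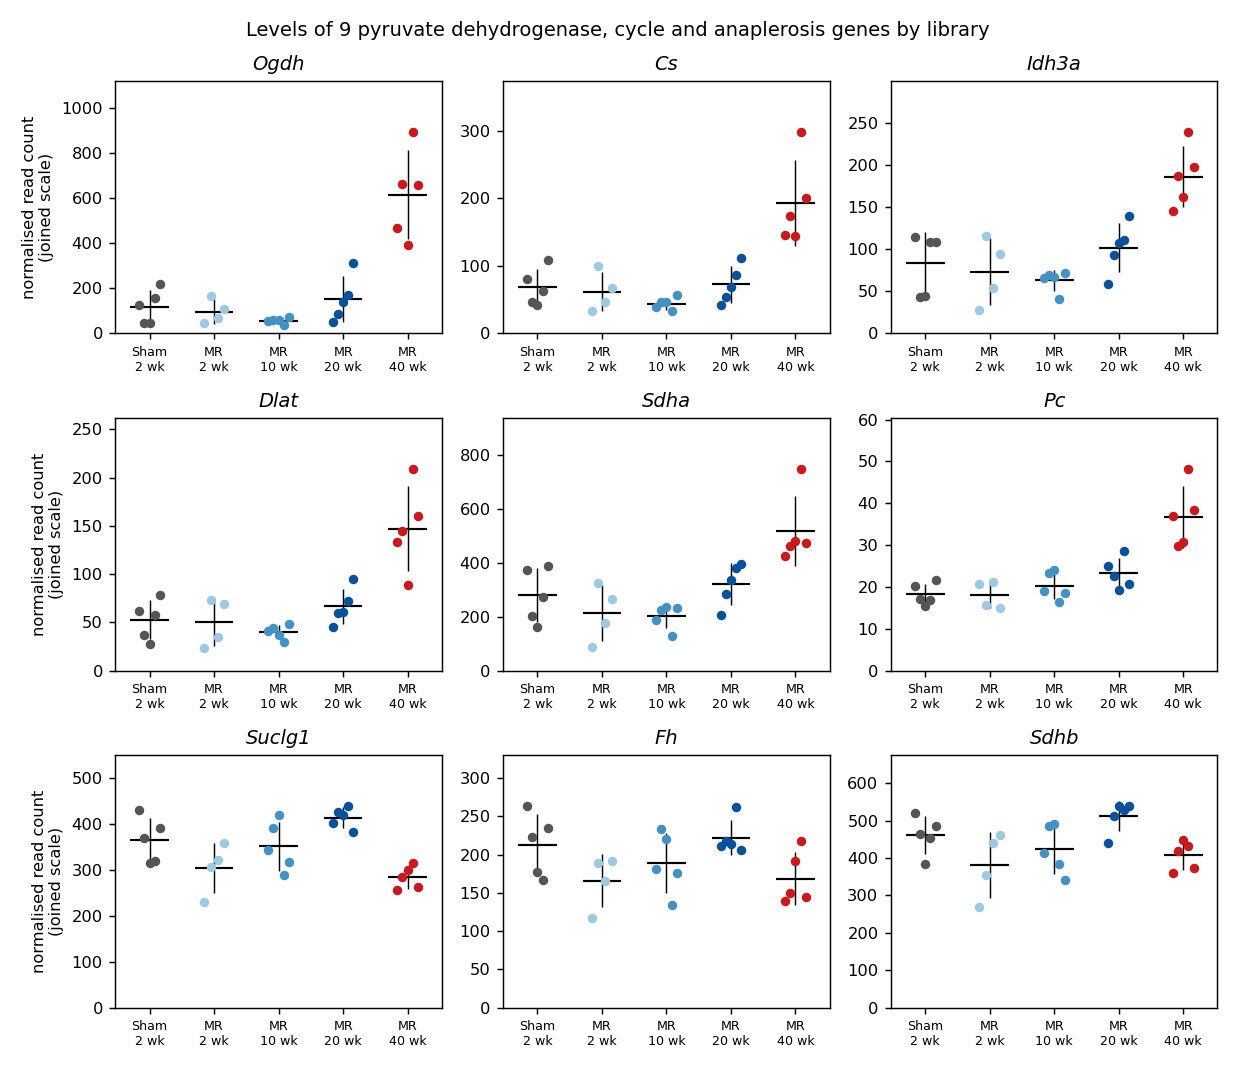
Normalised read counts (y axis, from 0, on the scale that joins the tables) of 9 members in each library, by group (x axis). Points are libraries, the horizontal bar is the group mean and the vertical line is the mean ± SD. On this scale all MR libraries at 40 weeks are above all Sham libraries for Ogdh, Cs, Idh3a, Dlat, Sdha and Pc, while for Suclg1 the highest MR library at 40 weeks (315.3) is level with the lowest Sham library (315.1).

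The partners outside the cycle were mixed. Idh1, the cytosolic NADP-linked isocitrate dehydrogenase, stood at 22.8, 25.4, 20.4, 31.4 and 25.4 in MR and at 12.2, 7.51, 9.34, 13.1 and 16.3 in Sham, with a log2 difference of 1.07 ± 0.18 (SE; adjusted p = 0.000541), and the groups did not overlap. Its mitochondrial counterpart Idh2 stood at 1161, 1243, 1335, 1431 and 989 in MR and at 1898, 1192, 809.7, 1557 and 1667 in Sham, with a log2 difference of -0.16 ± 0.23 (SE; adjusted p = 0.584), all MR libraries inside the Sham range. Me1, the cytosolic malic enzyme, which makes pyruvate and NADPH from malate, was at 65.5, 80.99, 67.3, 88.5 and 69.04 in MR and at 62.4, 36.98, 29.1, 61.4 and 58.2 in Sham, with a log2 difference of 0.62 ± 0.20 (SE; adjusted p = 0.0206). The lowest MR library of Me1 was just above the highest Sham library. Me3, the mitochondrial malic enzyme, was at 28.3, 33.2, 38.8, 40.9 and 28.1 in MR and at 42.1, 28.3, 19.2, 26.99 and 42.2 in Sham, with a log2 difference of 0.13 ± 0.20 (SE; adjusted p = 0.611). Mdh1, the cytosolic malate dehydrogenase of the malate-aspartate shuttle, was at 829, 964, 1021, 1001 and 793 in MR and at 1238, 785, 618, 1123 and 993 in Sham, with a log2 difference of -0.01 ± 0.20 (SE; adjusted p = 0.974). Neither Me3 nor Mdh1 showed separation of the groups. Aco1, the cytosolic aconitase that also acts as an iron sensor, gave a log2 difference of 0.31 ± 0.14 (SE; adjusted p = 0.0798).

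Of the 3 listed genes of anaplerosis, 2 rose. Pc, pyruvate carboxylase, which makes oxaloacetate from pyruvate, stood at 33.9, 26.2, 28.5, 43.3 and 31.4 in MR and at 21.4, 16.6, 14.4, 18.1 and 21.6 in Sham, with a log2 difference of 0.79 ± 0.15 (SE; adjusted p = 0.00121). Every MR library was above every Sham library. Pcca, the biotin-bearing alpha subunit of propionyl-CoA carboxylase, was at 52.9, 55.6, 58.1, 86.3 and 60.8 in MR and at 49.96, 28.6, 18.2, 46.1 and 53.02 in Sham, with a log2 difference of 0.74 ± 0.25 (SE; adjusted p = 0.0258), and only MR replicate 1 fell within the Sham range. Pccb, its beta partner, was at 43.99, 42.5, 72.9, 79.2 and 36.8 in MR and at 78.1, 57.8, 43.7, 58.5 and 70.8 in Sham, with a log2 difference of -0.20 ± 0.22 (SE; adjusted p = 0.462). The MR libraries of Pccb lay on both sides of the Sham range. Mut, which carries the product on to succinyl-CoA, was not analysed here.

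Among the enzymes that exchange cycle acids with amino acids, Glud1, glutamate dehydrogenase, stood at 113, 114, 121, 156 and 117 in MR and at 109, 67.8, 67.6, 103 and 103 in Sham, with a log2 difference of 0.48 ± 0.17 (SE; adjusted p = 0.0299). The groups of Glud1 did not overlap, but MR replicate 1 was only a little above Sham replicate 1. Got1, the cytosolic aspartate aminotransferase, was at 327, 409, 467, 513 and 358 in MR and at 544, 260.1, 173, 379 and 415 in Sham, with a log2 difference of 0.31 ± 0.26 (SE; adjusted p = 0.338). Got2, its mitochondrial counterpart, gave a log2 difference of 0.35 ± 0.25 (SE; adjusted p = 0.251), and neither aminotransferase passed.

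Ratios of partner genes inside a library cancel its scaling factor, apart from the 1 added before taking log2. At each of the 4 times 11 pairs were compared by a two-sided exact permutation test, 44 tests in all. At 40 weeks the log2 ratio of Sdhb to Sdha was -0.32 ± 0.28 in MR and 0.79 ± 0.41 in Sham (SD, n = 5 each; exact p = 0.00794, adjusted p = 0.0873). The ratio of Idh3g to Idh3a was 0.16 ± 0.21 against 1.32 ± 0.49, that of Idh2 to Idh1 5.56 ± 0.27 against 6.79 ± 0.37 and that of Pcca to Pccb 0.23 ± 0.38 against -0.72 ± 0.38, each with the same exact p and adjusted p. In these 4 pairs the MR and Sham libraries did not overlap, which gives the smallest p that 5 against 5 allows. No pair of the 44 passed the adjusted threshold. With 44 tests, 4 pairs at that smallest p have an adjusted p of 0.0873 however far apart the groups lie. The adjusted threshold therefore cannot decide for these 4 pairs. At 2, 10 and 20 weeks no pair separated the groups. The ratio of Sucla2 to Suclg2 was 1.78 ± 0.15 in MR at 40 weeks and 1.89 ± 0.10 in Sham (exact p = 0.254, adjusted p = 0.588), and that of Got2 to Got1 0.33 ± 0.17 and 0.29 ± 0.19 (exact p = 0.754, adjusted p = 0.891). A pair that missed the threshold is not thereby shown to have kept its ratio.

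**Figure D4:**
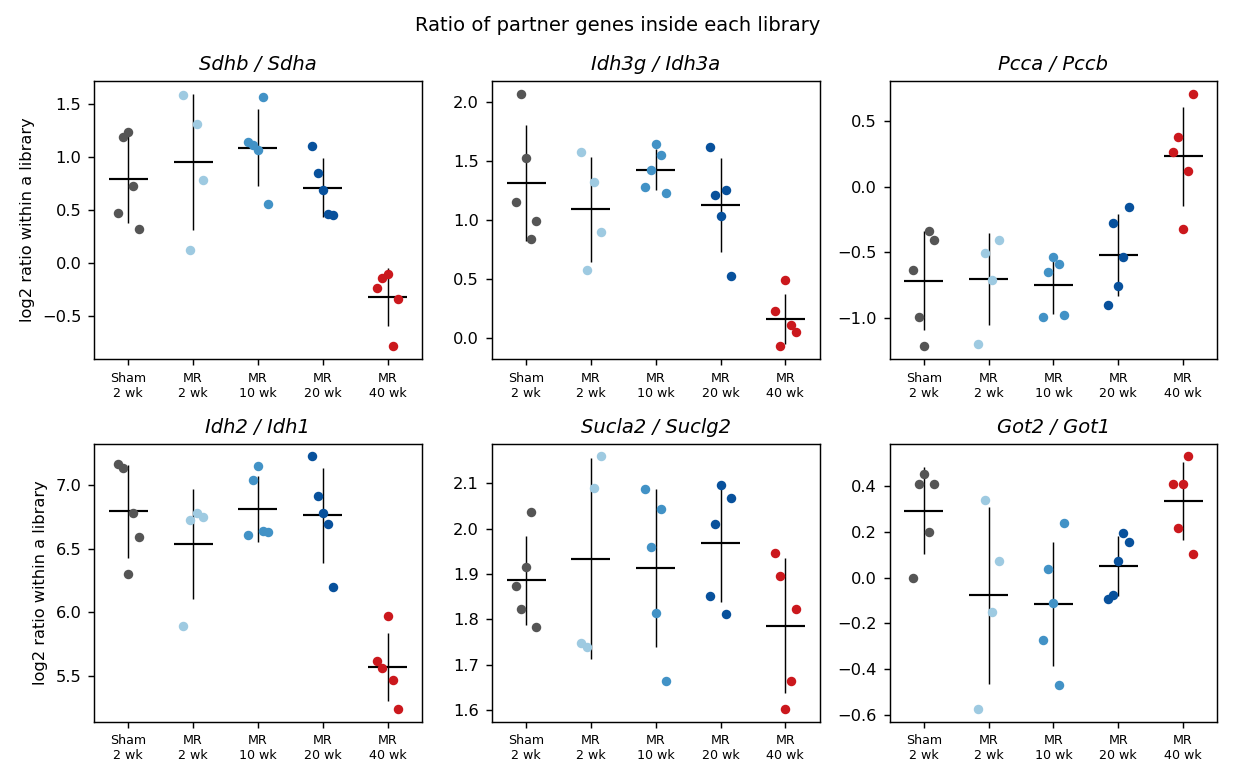
Log2 ratio of 6 pairs of partner genes inside each library (y axis), by group (x axis). Points are libraries, the horizontal bar is the group mean and the vertical line is the mean ± SD. In Sdhb/Sdha, Idh3g/Idh3a, Pcca/Pccb and Idh2/Idh1 the MR libraries at 40 weeks lie outside the Sham range, and in Sucla2/Suclg2 and Got2/Got1 they overlap it.

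The stretch of 250 bases before the transcription start is printed for 4 genes whose RNA differed in direction or size, namely Ogdh, which rose most, the partners Sdha and Sdhb, and Idh3g, whose partner rose while it did not. The sequences are the strand of the gene from RefSeq, assembly GRCr8, in which Ogdh's stretch is chr14:85363781-85364030 (+), Sdha's chr1:30764303-30764552 (+), Sdhb's chr5:158547684-158547933 (+) and Idh3g's chrX:156675483-156675732 (-). Capitals mark matches to the motifs searched.
Ogdh: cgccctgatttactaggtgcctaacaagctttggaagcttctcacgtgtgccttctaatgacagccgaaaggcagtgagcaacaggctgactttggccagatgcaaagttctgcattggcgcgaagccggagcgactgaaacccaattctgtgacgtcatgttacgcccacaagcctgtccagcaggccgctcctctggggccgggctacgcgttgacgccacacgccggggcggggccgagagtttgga
Sdha: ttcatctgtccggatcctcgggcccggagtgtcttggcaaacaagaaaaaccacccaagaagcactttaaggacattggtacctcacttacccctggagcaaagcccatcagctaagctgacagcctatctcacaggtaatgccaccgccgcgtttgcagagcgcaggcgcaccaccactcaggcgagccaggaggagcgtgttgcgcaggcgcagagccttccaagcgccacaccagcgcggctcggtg
Sdhb: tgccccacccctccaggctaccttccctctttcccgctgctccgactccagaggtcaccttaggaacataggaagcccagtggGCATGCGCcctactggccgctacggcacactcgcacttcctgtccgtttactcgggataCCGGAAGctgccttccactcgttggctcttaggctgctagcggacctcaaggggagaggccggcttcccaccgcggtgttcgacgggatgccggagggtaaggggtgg
Idh3g: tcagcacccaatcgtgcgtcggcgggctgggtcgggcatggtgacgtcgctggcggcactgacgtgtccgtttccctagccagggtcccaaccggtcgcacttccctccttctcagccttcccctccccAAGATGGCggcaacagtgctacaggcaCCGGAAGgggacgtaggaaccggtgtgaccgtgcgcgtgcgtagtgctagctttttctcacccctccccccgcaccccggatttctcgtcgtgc
Motifs were searched on both strands in the 32 member promoters that RefSeq's table holds, by letters fixed for 4 factors known for mitochondrial genes. CCGGAAG, of GA-binding protein, was found in 7 of 32 (21.9%, against 7.27% of all 33469 promoters): Dlst, Glud1, Idh3g, Mdh2, Mpc2, Sdhb and Sdhd. GCATGCGC, of nuclear respiratory factor 1, was found in Glud1, Pccb and Sdhb (9.38% against 2.20%), and AAGATGGC, of YY1, in Idh3g (3.12% against 1.63%). TNAAGGTCA, of the estrogen-related receptors, was found in none of the 32 (1.04% of all), which says only that these letters are not in these windows. None of the 4 motifs lies in the stretch printed for Ogdh or Sdha. Of the 7 members with the GA-binding protein motif, 1 rose at 40 weeks and none fell (median log2 difference -0.02), and of the 25 without it 9 rose and 2 fell (median 0.44). This is a description of few genes, made after their values were seen, and a match is not a binding site.

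At 2 weeks of MR no member passed: limma called 0 of 36 members and 0 of 10173 genes (0%), with 2 members and 556 genes at an unadjusted p under 0.05. edgeR on the recovered reads also called 0 genes, and DESeq2 called 65 genes, none a member. The members nonetheless had lower means with 1 exception, 35 of 36 lying under 0, with a median of -0.35 beside -0.07 over all genes. Mdh2 was at 235, 599, 389 and 523 in MR replicates 1 to 4 and at 828, 605, 459, 656 and 703 in Sham, with a log2 difference of -0.63 ± 0.27 (SE; adjusted p = 0.840). Me3 was at 8.25, 33.95, 22.3 and 26.96 in MR and at 45.01, 29.8, 19.9, 28.1 and 44.4 in Sham, with a log2 difference of -0.62 ± 0.35 (SE; adjusted p = 0.840). In both genes MR replicate 1 was far below the other libraries, and the median over the members was -0.12 without it and -0.23 without Sham replicate 1. Other lists were shifted at 2 weeks too: 0 of 11 cardiomyocyte markers (median -0.26), 1 of 44 genes named Nduf (complex I) and 0 of 69 named Mrpl or Mrps (mitochondrial ribosome) were above 0, while 8 of 8 macrophage markers were (median 0.39). None of these genes passed. Their part in the members' shift was not tested. Ogdh gave a log2 difference of -0.27 ± 0.52 (SE; adjusted p = 0.930) and Cs a log2 difference of -0.25 ± 0.35 (SE; adjusted p = 0.897).

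At 10 weeks limma called 0 of 36 members and 17 of 10096 genes (0.168%), with 1 member and 1212 genes at an unadjusted p under 0.05. edgeR called 5 genes and DESeq2 85, none of them a member. The median over the members was -0.12, beside 0.06 over all genes, and 7 of 36 had a higher mean in MR. That median was unsteady: with 1 library left out it ran from -0.29 (2 members above 0, without Sham replicate 3) to -0.01 (16 above 0, without Sham replicate 1), and it moved by over 1.5 times without any one Sham library or without MR replicate 4. Of the macrophage markers 8 of 8 were above 0 (median 0.57) and of the cardiomyocyte markers 3 of 11 (median -0.04), none of which passed, and their part was not tested. Ogdh stood at 62.6, 58.2, 64.4, 37.9 and 80.5 in MR and at 136, 45.2, 44.1, 165 and 225 in Sham, with a log2 difference of -0.76 ± 0.39 (SE; adjusted p = 0.459). All MR libraries of Ogdh were below Sham replicates 1, 4 and 5, and replicates 2 and 3 of Sham lay among them. Cs gave a log2 difference of -0.48 ± 0.24 (SE; adjusted p = 0.444), Me3 a log2 difference of -0.46 ± 0.22 (SE; adjusted p = 0.412) and Pc, the highest difference, a log2 difference of 0.21 ± 0.14 (SE; adjusted p = 0.599).

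At 20 weeks the sign of nearly all members was the other way, with 35 of 36 above 0 and a median of 0.23, beside 0.00 over all genes. Without Sham replicate 3 the median was 0.08, with 28 of 36 above 0. Above 0 too were 7 of 11 cardiomyocyte markers (median 0.20) and 56 of 69 Mrpl or Mrps genes (median 0.13). Only 2 of 8 macrophage markers were (median -0.24). Of 44 Nduf genes 25 were above 0 (median 0.02), and of 14 genes named Cox4 to Cox8 (complex IV) 6 were (median -0.03). The part of these lists was not tested. Limma called 0 of 36 members and 7 of 10025 genes (0.0698%), with 3 members and 951 genes at an unadjusted p under 0.05, edgeR 8 genes and DESeq2 93, none of them a member. Me1 was at 53.95, 69.7, 78.3, 70.96 and 67.1 in MR and at 61.1, 36.9, 29.5, 59.7 and 57.5 in Sham, with a log2 difference of 0.51 ± 0.20 (SE; adjusted p = 0.422), and Mpc1 gave a log2 difference of 0.50 ± 0.22 (SE; adjusted p = 0.481). For Me1, 4 of 5 MR libraries were above every Sham library. Ogdh stood at 47.8, 90.04, 138, 168 and 293 in MR and at 132, 44.04, 43.2, 162 and 217 in Sham, with a log2 difference of 0.34 ± 0.50 (SE; adjusted p = 0.874). MR replicate 5 was above every Sham library of Ogdh and MR replicate 1 near the lowest, a 6.37-fold spread within the group on the scale that joins the tables.

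MR times were also compared with each other, in a single limma fit of all 24 libraries over 9988 genes, on a scale on which each library was rescaled by its median ratio. Between 2 and 10 weeks no member passed, while 138 genes did (1.38%); 0 members and 1521 genes had an unadjusted p under 0.05. Between 10 and 20 weeks no member passed either, with 1 gene called (0.0100%) and 17 members and 1516 genes at an unadjusted p under 0.05. In that step 35 of 36 members had the higher mean at 20 weeks (median log2 difference 0.47, beside 0.00 over all genes), and in 5 members the groups did not overlap, against 1.64% of all genes. Pdhx gave a log2 difference of 0.88 ± 0.26 (SE; adjusted p = 0.231) and Ogdh a log2 difference of 1.18 ± 0.44 (SE; adjusted p = 0.259). With libraries weighted by their quality in limma, 12 members passed, where 7.62% of all genes did. In the same step 11 of 11 cardiomyocyte markers (median 0.28), 36 of 44 Nduf genes (median 0.18) and 63 of 69 Mrpl or Mrps genes (median 0.17) were above 0, and 0 of 8 macrophage markers were (median -0.58), none of which passed. Their part in the members' difference was not tested.

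Against 2 weeks of MR, 6 members were higher at 20 weeks: Idh3g, Suclg1, Sdhc, Mdh2, Me1 and Mpc1, where 8.82% of all genes passed in either direction, and all 36 differences were above 0 (median 0.52, and 0.30 without replicate 1 of MR at 2 weeks). Other lists differed between these times as well: 10 of 11 cardiomyocyte markers were above 0 and 3 rose (median 0.28), 69 of 69 Mrpl or Mrps genes were above 0 and 10 rose (median 0.30), and 42 of 44 Nduf genes were above 0 and 2 rose (median 0.25). Of 9 fibroblast markers 4 fell (median -0.62), and 0 of 8 macrophage markers were above 0 (median -0.68). Their part in the members' difference was not tested. Me1 stood at 55.2, 65.3, 79.05, 72.3 and 71.4 at 20 weeks and at 23.9, 51.4, 36.6 and 50.7 at 2 weeks, with a log2 difference of 0.79 ± 0.20 (SE; adjusted p = 0.0183). Mdh2 stood at 591, 656, 685, 792 and 671 and 236, 584, 408 and 515, with a log2 difference of 0.71 ± 0.21 (SE; adjusted p = 0.0399). Neither gene had an overlap between the times, and MR 2 weeks replicate 1 was the lowest library in both. These calls rested on single libraries: the count was 0 without replicate 1 or without replicate 3 of MR at 2 weeks, 1 without replicate 2, 3 or 4 of MR at 20 weeks and 2 without its replicate 5, and 12 without its replicate 1, while it was 14 and 13 without replicates 2 and 4 of MR at 2 weeks.

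From 20 to 40 weeks of MR, 11 members rose (21.2% of all genes passed as higher) and 1 fell (17.6% as lower). Ogdh, Pdpr, Cs, Dlat, Idh1, Idh3a, Pdp2, Pdp1, Pc, Aco1 and Glud1 rose, and Suclg1 fell. Ogdh went from 48.9, 84.4, 139, 171 and 312 at 20 weeks to 466, 659.5, 394, 894 and 659 at 40 weeks, with a log2 difference of 2.23 ± 0.44 (SE; adjusted p = 0.000414). Cs went from 42.5, 54.1, 68.3, 86.9 and 111 to 146, 174, 144, 299 and 201, with a log2 difference of 1.42 ± 0.29 (SE; adjusted p = 0.000513), again without overlap. Suclg1 went the other way, from 401, 425, 419, 439 and 382 to 257, 283, 299.9, 315 and 263, with a log2 difference of -0.54 ± 0.13 (SE; adjusted p = 0.00169). Idh3a and Pdp2 no longer passed without replicate 1 or 2 of MR at 20 weeks or without replicate 2, 4 or 5 of MR at 40 weeks, nor did Glud1 without replicate 1 of MR at 20 weeks or replicate 4 of MR at 40 weeks. In the same step 4 of 11 cardiomyocyte markers fell and 1 rose, 31 of 44 Nduf genes fell and 3 rose, and 42 of 69 Mrpl or Mrps genes fell and 3 rose, and their part was not tested. Suclg1 was thus among the genes that were higher at 20 than at 2 weeks and lower at 40 than at 20 weeks, its mean levels being 364 ± 48.3 in Sham and 304 ± 53.5, 351 ± 53.8, 413 ± 22.1 and 284 ± 24.7 in MR at 2, 10, 20 and 40 weeks (SD).

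The other genes of the pathway were given from lists kept apart from the members, with 16.3% of all genes higher and 30.9% lower at 40 weeks as the background. Of 10 regulators of mitochondrial genes, 7 rose and none fell at 40 weeks (median 0.95). Esrrg, an estrogen-related receptor, was at a mean of 13.3 ± 4.20 in MR and 2.73 ± 1.09 in Sham (SD; log2 difference 1.93 ± 0.23 SE, adjusted p = 0.000137), and Yy1 and Esrrb gave 1.0 ± 0.17 and 1.16 ± 0.21 (SE; adjusted p = 0.000543 and 0.000687). Of 9 genes of lactate, alanine and glutamine exchange, 3 rose and 1 fell. Slc16a1, a lactate and pyruvate transporter of the cell membrane, gave 1.68 ± 0.27, Glul, glutamine synthetase, 1.01 ± 0.18, and Gpt, alanine aminotransferase, -0.70 ± 0.15 (SE; adjusted p = 0.000432, 0.000719 and 0.00244). Of 10 genes of branched-chain amino acid and ketone entry, 4 rose and 1 fell, led by Ppm1k, the phosphatase that switches on branched-chain ketoacid dehydrogenase, at 1.92 ± 0.21 (SE; adjusted p = 0.000130). The list named for the propionate route also took in Pck2 and Acly, which do not belong to that route. Of its 7 genes tested, 1 rose and 2 fell. Pck2, mitochondrial PEP carboxykinase, was among those that fell (-1.01 ± 0.18 SE, adjusted p = 0.000682). Of 5 carriers of cycle intermediates, Slc25a11, the oxoglutarate carrier, rose (0.92 ± 0.30 SE, adjusted p = 0.0226) and Slc25a22, a glutamate carrier, fell (-0.87 ± 0.19 SE, adjusted p = 0.00273). The 6 genes of lipoate and thiamine supply ran from -0.36 to 0.41, and limma called 0 of them. Sdhaf1, an assembly factor of succinate dehydrogenase, fell (-0.48 ± 0.13 SE, adjusted p = 0.00885), and Nnt, the proton-driven NADPH source of the matrix, rose (0.90 ± 0.30 SE, adjusted p = 0.0227). These counts are on the deposited scale. After the median-ratio rescaling (23.7% of all genes higher, 21.8% lower) 8 regulators and 1 gene of lipoate and thiamine supply rose. Of lactate, alanine and glutamine exchange 4 rose and 1 fell, and of branched-chain amino acid and ketone entry 4 rose and none fell. Of 5 other cycle isoforms, the list that holds Nnt, 3 rose, against 1 as deposited.

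Nuclear genes of the respiratory chain and of the mitochondrial ribosome were set beside the members by symbol. At 40 weeks 33 of 44 genes named Nduf, subunits and assembly factors of complex I, fell and 3 rose (median log2 difference -0.71), and 14 of 14 genes named Cox4 to Cox8, subunits of complex IV, fell (median -1.0). Among 69 genes named Mrpl or Mrps, of the mitochondrial ribosome, 42 fell and 2 rose (median -0.55). After the median-ratio rescaling the counts were 32 lower and 3 higher, 14 lower, and 37 lower and 4 higher. Among the members, 2 of 36 fell as deposited and 1 after the rescaling. These lists were set side by side after their values were known, and the difference between them and the members was not tested.

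Markers of cell types were counted at 40 weeks against the same background of 16.3% of all genes higher and 30.9% lower. These counts are on the deposited scale, while the sums are on the scale that joins the tables. Of 11 cardiomyocyte markers 2 rose and 5 fell, and their summed level ran from 57193 to 74479 in MR and from 60590 to 71697 in Sham, so that the groups overlapped. Tnni3, a thin filament protein, was the one with the smallest p, at -1.35 ± 0.21 (SE; adjusted p = 0.000343), and Ryr2, the calcium release channel, was at 1.12 ± 0.22 (SE; adjusted p = 0.00116). Of 9 fibroblast markers 1 rose and 4 fell, with sums of 781 to 1137 in MR and 952 to 2850 in Sham, and of 8 macrophage markers none rose and 3 fell, with sums of 41.2 to 105 and 67.5 to 133. Of 8 endothelial markers 1 rose and 3 fell, and of 4 adipocyte markers 2 fell, with sums of 205 to 331 in MR and 362 to 606 in Sham. Of 4 atrial markers none rose and 1 fell, with sums of 90.9 to 2023 in MR and 112 to 516 in Sham. After the median-ratio rescaling (23.7% of all genes higher, 21.8% lower) 2 fibroblast, 1 macrophage, 2 endothelial, 1 adipocyte and 1 atrial markers fell. Of the cardiomyocyte markers 3 then rose and 5 fell. No listed gene of any kind was at 0 in any library, so that the listed markers were above 0 says nothing about cell types. Of the markers chosen, 4 of 7 for adipocytes and 2 of 6 for lymphocytes were listed. The part of the markers in the members' differences was not tested.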

How the data were processed

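RNA-seq of 24 rat myocardium libraries was deposited as 4 tables, each holding one MR time beside the same 5 Sham libraries. Per the submitters' processing notes, Partek and genome build rn6 were used; not given in the sources used here: aligner, annotation, counting, strand setting, scaling. The deposited values are a linear signal, normalised gene counts per library; about 97% of them are whole reads within 0.1 read once the library's factor is undone, with 7.69 to 12.1 M reads per library. Intervals from depth would cover counting error only.

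Each MR time was tested against Sham in its own table with limma 3.58.1 (R 4.3.3) on log2(value + 1), moderated by empirical Bayes with a trend on the mean, for genes with a mean of at least 1. A gene passed at a two-sided Benjamini-Hochberg adjusted p under 0.05. The log2(value + 1) scale understates the change of low genes. MR times were compared in one fit of all 24 libraries after median-ratio rescaling, with Sham taken from the 2-week table. Ratios inside a library were compared by exact permutation (scipy 1.17.1). Scripts were tested on simulated data. Alternatives were a pseudocount of 0.5, no filter or a minimum mean of 10, median-ratio and TMM rescaling, library weights, other sets of libraries in the fit, edgeR 4.0.16 and DESeq2 1.42.0 on the recovered reads, and each library left out. The design named edgeR for raw counts; limma was used because the values are scaled.

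Groups came from the labels, and replicates are numbered in label order within a group. Levels are shown library by library for a fixed panel of 20 members and for the up to 6 members with the largest changes among those that passed; other members by differences, and up to 3 genes with the smallest p from each related list. A few further genes (Dlst, Idh3g, Pccb, Mdh2 by library at 40 weeks, and the Ogdh to Dlst ratio) were singled out after their values were seen. One gene of a related list is not reported here. Members and lists were chosen with earlier results of these data known. Levels of different genes were not compared, since transcript lengths were not used. Counting without a known strand setting cannot separate a gene from an antisense partner. Promoters are RefSeq's, assembly GRCr8, matched by symbol for 32 of 36 members.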

Additional observations from a re-analysis of the deposited data

Results flagged for a closer look

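With 180 sets of libraries (36 members in 5 groups), flagging 1 in 20 by chance would give 9. In 13 sets, a library's gap to its nearest neighbour took a share of the group's range large enough to be flagged. Replicate 1 of MR at 20 weeks was the low library in 7 of them, on the scale that joins the tables: Dlst at 313 (next 400.2), Sucla2 at 133 (next 191), Sdhb at 441 (next 512), Sdhc at 246 (next 309), Sdhd at 253 (next 336), Mdh1 at 803 (next 1107) and Pdhb at 141 (next 197). The same library had the lowest cardiomyocyte marker sum of its group, 61415 against 74765 to 79000 in the others. Replicate 4 of MR at 40 weeks was the high library for Sucla2 at 289.6 (next 215), Sdha at 749.6 (next 482) and Pdhb at 274 (next 211), and its cardiomyocyte marker sum was 70018. Idh3a was low at 40.6 in replicate 4 of MR at 10 weeks (next 65.5), Fh high at 263 in replicate 4 of MR at 20 weeks (next 218) and Pdpr high at 12.3 in replicate 5 of MR at 20 weeks (next 6.67). The part of the marker sums in these values was not tested.

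Differences between MR times that passed limma's adjusted threshold stand out as well. From 20 to 40 weeks the log2 differences were 2.23 for Ogdh, 1.82 for Pdpr, 1.42 for Cs, 1.12 for Dlat, 0.96 for Idh1, 0.90 for Idh3a, 0.85 for Pdp2, 0.66 for Pdp1, 0.63 for Pc, 0.49 for Aco1, 0.44 for Glud1 and -0.54 for Suclg1, with adjusted p between 8.6e-05 and 0.0309. From 2 to 20 weeks they were 0.79 for Me1, 0.71 for Mdh2, 0.67 for Mpc1, 0.65 for Idh3g, 0.52 for Sdhc and 0.46 for Suclg1, with adjusted p between 0.0183 and 0.0486. Suclg1 is the member in both sets, with opposite signs.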

How the results depend on the processing

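No paired analysis was possible because the replicate numbers only name libraries within a group. The number of members called at 40 weeks was 15, 19 to 21 with another scaling, count test or joint fit, and 8 to 18 with a library left out. Between 10 and 20 weeks of MR it was 0, and 12 with library weights. From 20 to 40 weeks it was 12, and 20 in a fit of these groups alone. From 2 to 20 weeks it was 6, then 0 in a fit of these groups alone and 0 to 14 with a library left out. At 40 weeks, small differences below 0 turned above it under TMM, the joint fit, median-ratio rescaling, edgeR and DESeq2 in turn: Idh3g 0.0926, 0.102, 0.0765, 0.0719 and 0.0584; Mdh1 0.17, 0.17, 0.15, 0.14 and 0.12; Mpc2 0.15, 0.16, 0.13, 0.12 and 0.11; Sdhd 0.17, 0.18, 0.16, 0.15 and 0.14. Idh2 turned under TMM (0.0147) and the joint fit (0.0244), and Pccb under edgeR (0.00213). With a library left out, the ranges that crossed 0 were -0.25 to 0.0386 for Idh3g, -0.15 to 0.0961 for Mdh1, -0.17 to 0.0593 for Mpc2, -0.14 to 0.11 for Sdhd and -0.0286 to 0.24 for Me3 at 40 weeks, -0.60 to 0.0369 for Ogdh and -0.53 to 0.00293 for Cs at 2 weeks, and -0.0806 to 0.27 for Cs at 20 weeks. Over all genes, DESeq2 called 65, 85 and 93 genes at 2, 10 and 20 weeks where limma called 0, 17 and 7, library weights 22, 27 and 30, the joint fit 27, 3 and 11, and edgeR 0, 5 and 8; TMM and median-ratio rescaling called 7 and 5 at 10 weeks. With library weights 1187 genes passed between 2 and 10 weeks of MR (138 without), 761 between 10 and 20 (1 without) and 1715 between 2 and 20 (881 without); with a fit of the groups alone 45, 3 and 435, and with a minimum mean of 10 the counts were 32 between 2 and 10 weeks, 0 between 10 and 20 and 2418 between 20 and 40 (3874 without). The cause of these changes was not tested. Of the recomputed log2 differences of members followed by name in each comparison, 1116 kept their direction and their side of the threshold. Another 81 no longer passed, 46 newly passed and 47 reversed. Counts of genes or members were not part of this tally.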
